A study of Mus musculus with 6 samples.

Results

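The genes described here are the WNT ligands, the R-spondins, the Frizzled, LRP and LGR receptors, the secreted WNT inhibitors and 2 genes that read out the pathway, Axin2 and Lef1, in the lobes of the mouse prostate. They were chosen by symbol: every Wnt, Fzd, Rspo, Sfrp and Dkk gene, together with Wif1, Lgr4, Lgr5, Lrp5, Lrp6, Axin2 and Lef1. The table of expression values held 48 of these among 24908 genes. RNA-seq was done on 3 lobes, anterior (AP), dorsolateral (DLP) and ventral (VP), from a MYC mouse and a wild-type (WT) littermate, both FVB males of 12 weeks on a purified diet. The MYC mouse was heterozygous for a human c-MYC transgene under the ARR2Pb promoter, a derivative of the probasin promoter that is active in prostate epithelium. Each lobe was digested to a suspension of single cells and RNA was taken from an aliquot of it. All 3 libraries of a genotype came from 1 mouse, so the genotype cannot be told apart from the animal, and neither was tested.

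WNT proteins are secreted, lipid-modified ligands that bind a Frizzled receptor together with LRP5 or LRP6. In the canonical branch this binding stabilizes β-catenin, which enters the nucleus and joins TCF and LEF factors on their target genes, while other WNTs act through Frizzleds without β-catenin. R-spondins bind LGR receptors and keep Frizzleds at the cell surface, and the SFRP, WIF1 and DKK proteins act outside the cell on ligands or co-receptors. In the prostate the pathway takes part in the budding and branching of the gland, and the ligands and inhibitors are made in large part by the stroma that surrounds the epithelial ducts.

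Levels are in FPKM, read fragments scaled to transcript length and to the depth of the library, so that genes can be compared with each other. Estimated depth was between 25.5 M and 50.2 M mapped reads per library, and 17213 to 18209 genes were above 0. Epithelial keratins were present in every library. The MYC AP library also held seminal vesicle transcripts, whose 7 markers summed to 522 FPKM there, 9.17 FPKM in MYC DLP and at most 0.112 FPKM in the other libraries. Folds are ratios of FPKM with a 95% exact binomial (Clopper-Pearson) interval of the estimated read counts, which covers counting error only and not the difference between animals. The log2 ratio is that of FPKM + 1, MYC over WT, and a gene is said to have risen or fallen where this ratio passed 2-fold. Because these were whole lobes, fewer cells of a type and less RNA per cell cannot be told apart.

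Of the 48 genes, 29 averaged 1 FPKM or more across the libraries and were compared, among 12361 such genes in all. They comprised 9 of the 19 ligands, 1 of the 4 R-spondins, 7 of the 10 Frizzleds, both co-receptors, both LGR receptors, 6 of the 9 secreted inhibitors, and both Axin2 and Lef1. The other 19 were low. Fzd3 reached 1.18 FPKM in MYC VP and Fzd10 reached 1.14 FPKM in WT DLP. The remaining 17 stayed under 1 FPKM in every library, with Wnt10b (at most 0.985 FPKM), Sfrp5 (0.984), Rspo1 (0.841), Fzd9 (0.639) and Wnt2b (0.560) the highest of them. Wnt16 (0.124), Rspo4 (0.108), Wnt1 (0.106), Wnt9b (0.0725), Rspo2 (0.0589), Wnt3a (0.0470), Dkk1 (0.0283), Wnt7a (0.0205) and Wnt8b (0.00906) had traces, and Wnt3, Wnt8a and Dkk4 were listed at 0 in all 6 libraries.

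In the WT mouse the genes compared were mostly highest in AP and lowest in VP. AP held the highest WT level of 18 of the 29 (62.1%, against 32.6% of all genes), DLP of 5 and VP of 6, and VP was the lowest of the 3 lobes for 21, or 72.4%, against 46.7% of all genes compared. By a 2-fold margin over both other WT lobes, 4 were highest in AP (Wnt2, Wnt6, Wnt10a and Sfrp2), against 1.17% of all genes, and 3 without Sfrp2 when the libraries were scaled by medians of ratios or by a trimmed mean. Sfrp4 alone was highest in DLP (0.688% of all genes) and Lgr5 alone in VP (2.4% of all genes), a call that was lost with equal sums of FPKM. In the MYC mouse the same lobe held the highest level for 4 of these 6, with Wnt10a highest in DLP and Sfrp4 in AP, and for 71.7% of all genes that were high in 1 WT lobe.

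**Figure D1:**
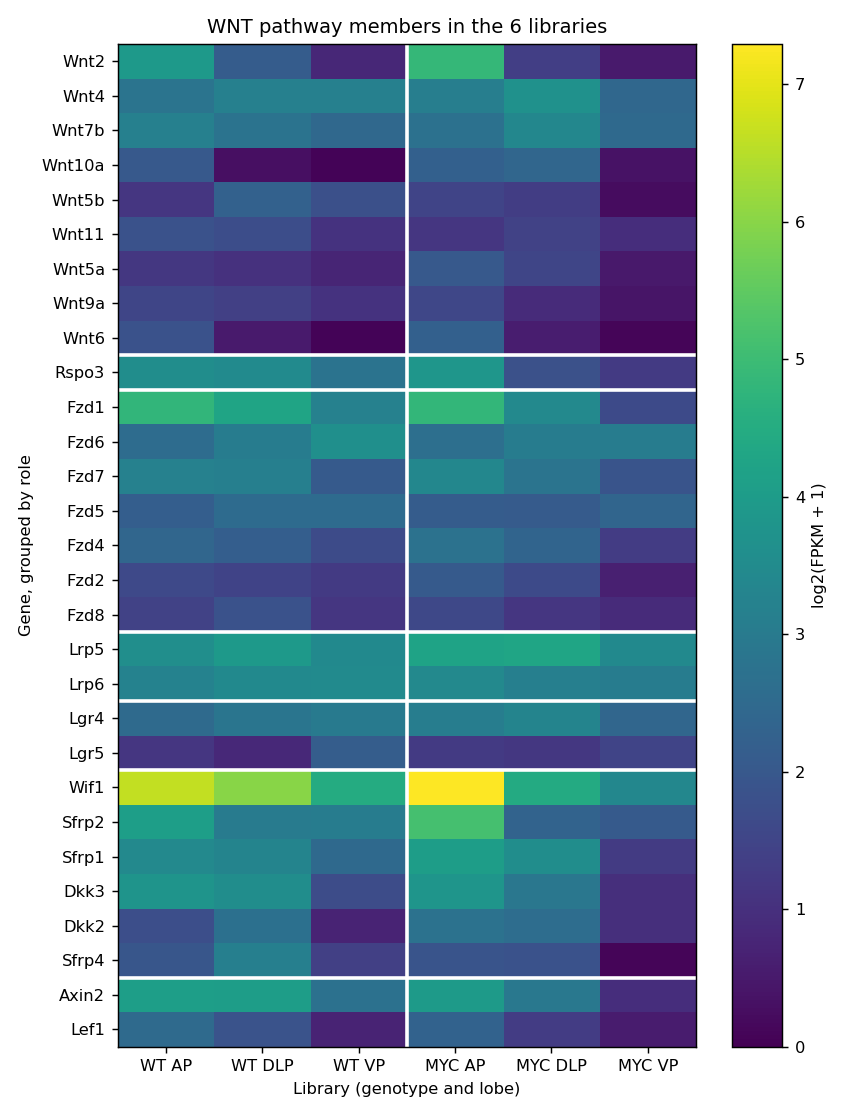
Level of the 29 genes compared, as log2(FPKM + 1) in colour, with genes in rows grouped by role (white lines) and the 6 libraries in columns, WT on the left. Wif1 is the brightest row, with 97.4 FPKM in WT AP and 156 FPKM in MYC AP, and the MYC VP column is the darkest for most genes.

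In the VP of the MYC mouse, most of the genes were lower than in the WT mouse and none had risen. Their log2 ratio was below 0 for 24 of 29, or 82.8%, against 46.4% of all genes, and 7 had fallen (Axin2, Rspo3, Fzd1, Wnt5b, Sfrp4, Sfrp1 and Wif1), against 5.95% of all genes. In DLP 4 had fallen (Rspo3, Wif1, Sfrp4 and Axin2), against 3.39% of all genes, and Wnt10a alone had risen, against 6.46%. Those 4 had fallen in VP too, so that 4 of the 29 (13.8%) had fallen in both lobes, against 1.88% of all genes. Over all genes, 232 of the 419 that fell in DLP and of the 736 that fell in VP had fallen in both. The share of all genes that rose in VP was 6.88%. In AP none had fallen, against 0.599% of all genes, and Sfrp2 alone had risen, against 2.05%, a call that was lost when the libraries were scaled by medians of ratios or by a trimmed mean (log2 ratios of 0.91 and 0.92). Median log2 ratios were 0.20 (AP), -0.34 (DLP) and -0.58 (VP), against 0.13, 0.03 and 0.04 over all genes.

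**Figure D2:**
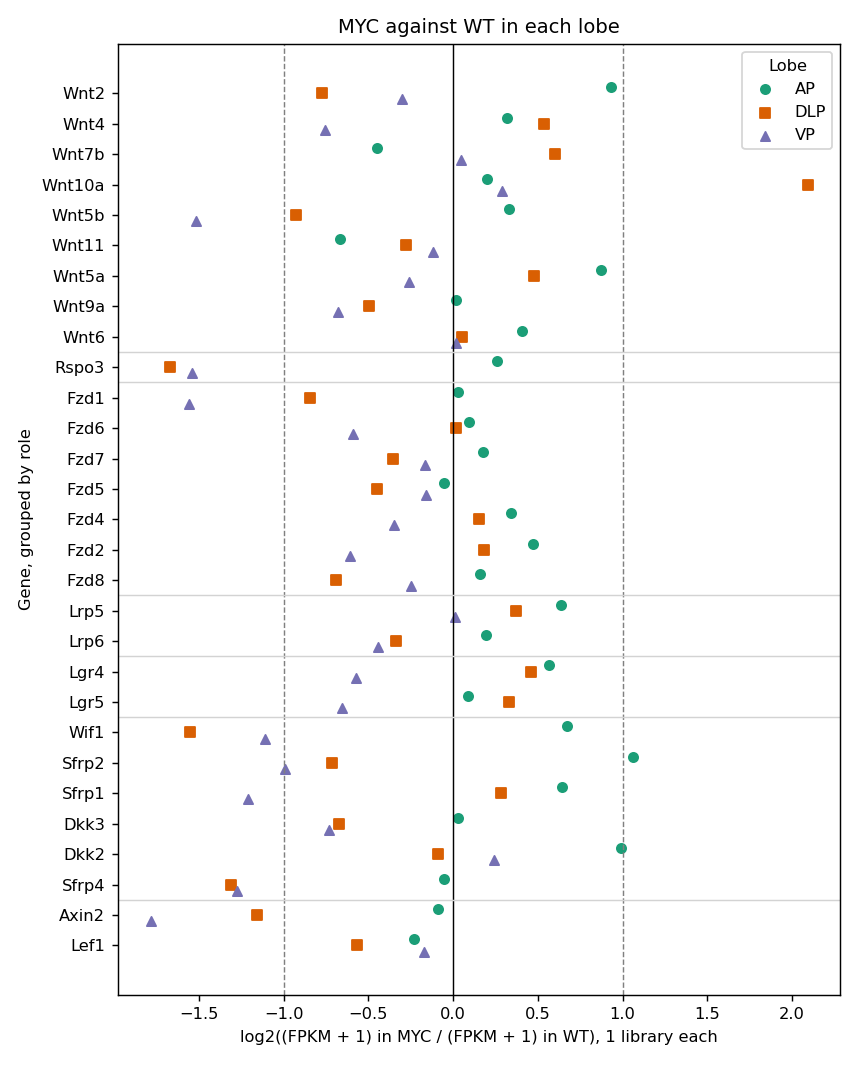
Log2 ratio of FPKM + 1, MYC over WT, for each gene in AP (circles), DLP (squares) and VP (triangles), 1 library against 1, with dashed lines at 2-fold. The triangles lie left of 0 for 24 of 29 genes, and the square of Wnt10a at 2.09 is the point farthest to the right.

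Among the ligands, Wnt2 and Wnt4 had the highest means over the libraries. Wnt2, a ligand of mesenchymal cells in many organs, had 14.2 FPKM (AP), 3.38 (DLP) and 0.769 (VP) in the WT mouse, and 28.0 (AP), 1.57 (DLP) and 0.433 FPKM (VP) in the MYC mouse. AP was thus far above VP in both mice, by 18.5-fold (14.3 to 23.9) in WT and 64.7-fold (45.8 to 95) in MYC. In AP the MYC level was 1.97-fold the WT level (1.81 to 2.15), whereas in DLP the WT level was 2.16-fold the MYC level (1.71 to 2.74).

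Wnt6 and Wnt10a, neighbouring protein-coding genes on chromosome 1 (chr1:74754342-74785322 and chr1:74792019-74804176 in GRCm38.p6), both had their WT maximum in AP. Wnt6 had 2.54, 0.455 and 0.0540 FPKM in WT AP, DLP and VP, and 3.69, 0.509 and 0.0653 FPKM in MYC. Its order over the lobes was therefore the same in the 2 mice, with log2 ratios of 0.41, 0.05 and 0.02. Wnt10a, a canonical ligand known from skin appendages and teeth, had 3.12, 0.241 and 0.0573 FPKM in WT and 3.74, 4.29 and 0.291 FPKM in MYC. Its rise in DLP, 17.8-fold (11.8 to 27.4), brought that lobe to the level of MYC AP, the AP-to-DLP ratio being 0.871 (0.755 to 1.01) in MYC and 12.9 (8.47 to 20.2) in WT. In VP the MYC level was 5.08-fold the WT level (2.2 to 16.1), at values so low that the log2 ratio was 0.29.

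Wnt4 and Wnt7b, which epithelia commonly make, were more even. Wnt4 had 5.96, 7.99 and 8.08 FPKM in WT AP, DLP and VP and 7.68, 12.0 and 4.38 FPKM in MYC. Its WT level in VP was 1.85-fold the MYC level (1.69 to 2.02), and MYC DLP held the highest value. Wnt7b had 8.03, 5.85 and 4.47 FPKM in WT and 5.62, 9.37 and 4.65 FPKM in MYC, so its highest lobe was AP in WT and DLP in MYC, and its VP levels were nearly equal.

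Wnt5a and Wnt5b, best known as ligands of the branch without β-catenin, were both higher in MYC AP and lower in MYC VP, and differed in direction in DLP. Wnt5b (chr6:119432531-119544824) had 1.23, 3.77 and 2.41 FPKM in WT AP, DLP and VP and 1.80, 1.5 and 0.191 FPKM in MYC. It fell in VP, where WT was 12.6-fold above MYC (7.5 to 22.1), and in DLP the WT level was 2.51-fold the MYC level (2.01 to 3.14) with a log2 ratio of -0.93. Wnt5a had 1.25, 1.08 and 0.675 FPKM in WT and 3.12, 1.89 and 0.400 FPKM in MYC, and was 2.49-fold higher in MYC AP (1.9 to 3.28), a log2 ratio of 0.87, and 1.75-fold higher in MYC DLP (1.35 to 2.28), while in VP the WT level was 1.69-fold the MYC level (1.12 to 2.65). Wnt9a and Wnt11 were low throughout. Wnt9a ranged from 1.12 to 1.87 FPKM in WT and from 0.320 (VP) to 1.91 FPKM (AP) in MYC, its WT level in VP being 3.49-fold that in MYC (2.47 to 5.04). Wnt11 ranged from 1.09 to 2.56 FPKM in WT and from 0.924 to 1.73 FPKM in MYC, and of the 9 ligands compared it was, besides Wnt7b, the one with a negative log2 ratio in AP (-0.67).

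Summed over all 19 ligands, WT had 42.0, 28.3 and 19.5 FPKM in AP, DLP and VP, and MYC had 57.6, 34.2 and 11.8 FPKM. In MYC the lead of AP rested on Wnt2. Without it the sums were 27.8, 24.9 and 18.7 FPKM in WT and 29.6, 32.6 and 11.4 FPKM in MYC, so that AP was highest in WT and DLP in MYC, with VP lowest in both.

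Rspo3 was the one R-spondin that passed the minimum. This secreted ligand of LGR4 and LGR5 (chr10:29453106-29535867) had WT levels of 11.0 FPKM (AP), 10.2 (DLP) and 5.89 (VP), and 13.4, 2.51 and 1.37 FPKM in the same lobes of MYC. In WT the AP and DLP levels did not differ beyond counting error, at a ratio of 1.09 (0.981 to 1.2), and in MYC AP was 5.34-fold above DLP. Rspo3 fell in DLP, by 4.05-fold (3.47 to 4.76), and in VP, by 4.31-fold (3.55 to 5.28), and had a log2 ratio of 0.26 in AP. Its receptors differed from it in direction in DLP, where both were higher in MYC, and were lower in MYC VP without passing 2-fold. Lgr4 had 4.74, 6.20 and 6.94 FPKM in WT and 7.52, 8.88 and 4.33 FPKM in MYC, with log2 ratios of 0.57, 0.46 and -0.58. Lgr5, a marker of stem cells in the intestine and hair follicle (chr10:115450314-115587780), had 1.21, 0.803 and 3.44 FPKM in WT and 1.34, 1.26 and 1.82 FPKM in MYC. It was highest in VP in both mice, at 2.85-fold the AP level in WT (2.19 to 3.74) and 1.35-fold in MYC (1.08 to 1.70).

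Fzd1 was the leading Frizzled in AP and DLP. This single-exon receptor gene (chr5:4753839-4758216) had 27.0, 18.3 and 8.16 FPKM in WT AP, DLP and VP and 27.6, 9.75 and 2.11 FPKM in MYC. As deposited, the AP libraries of the 2 mice did not differ beyond counting error (1.02-fold, 0.975 to 1.07). With scaling by medians of ratios the AP log2 ratio of Fzd1 went from 0.03 to -0.12. WT was 1.88-fold above MYC in DLP (1.77 to 2.0) and 3.87-fold in VP (3.45 to 4.35). Fzd1 was the one Frizzled that fell. Its share of the summed Frizzled FPKM went from 50.9% in WT AP to 24.3% in WT VP, and from 46.9% in MYC AP to 10.2% in MYC VP.

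Fzd6, a receptor of the planar polarity branch, had the reverse order in WT, with 4.95 FPKM in AP, 7.32 in DLP and 11.5 in VP, and 5.35, 7.42 and 7.28 FPKM in MYC. It was the leading Frizzled of VP in both mice. Fzd7 had 8.26, 7.9 and 3.15 FPKM in WT and 9.48, 5.97 and 2.69 FPKM in MYC, the same order as Fzd1. Fzd5 ranged from 3.27 to 4.84 FPKM over the 6 libraries, Fzd4 from 1.47 to 5.70 FPKM, Fzd2 from 0.554 to 3.19 FPKM and Fzd8 from 0.867 to 2.56 FPKM. None of them passed 2-fold on the log2 ratio, although WT was 2.47-fold above MYC for Fzd2 in VP (1.91 to 3.24) and 2.12-fold for Fzd8 in DLP (1.74 to 2.61). All 7 Frizzleds had a log2 ratio below 0 in VP, from -0.16 (Fzd5) to -1.56 (Fzd1), and their median there was -0.35.

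The co-receptors were among the most even of the genes. Lrp5 had 11.1, 14.3 and 9.97 FPKM in WT and 17.8, 18.7 and 10.04 FPKM in MYC, with a VP ratio of 1.01 (0.949 to 1.07) and 1.60-fold more in MYC AP (1.51 to 1.70). Lrp6 ranged from 8.48 to 10.3 FPKM in WT and from 7.31 to 9.83 FPKM in MYC.

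**Figure D3:**
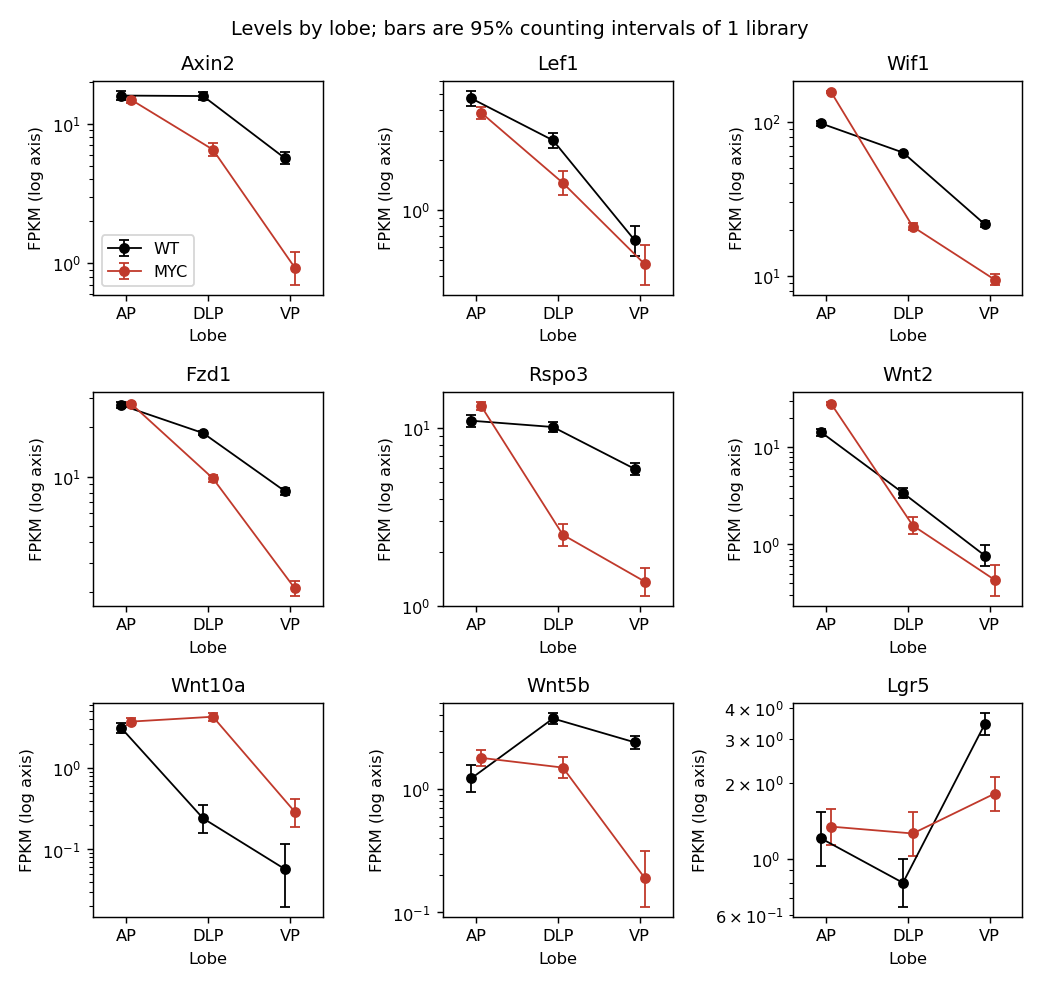
FPKM (log axis, 1 scale per panel) of 9 genes in AP, DLP and VP of the WT mouse (black) and the MYC mouse (red), 1 library per point, with bars giving the 95% counting interval. Axin2, Fzd1 and Rspo3 lie close together in AP and far apart in VP, whereas Wnt10a parts in DLP, at 0.241 FPKM in WT and 4.29 FPKM in MYC.

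The secreted inhibitors had the highest summed level of the groups in every library but MYC VP, where the Frizzleds (20.6 FPKM) and the co-receptors (17.3 FPKM) were above them. Wif1, which binds WNT ligands directly (chr10:121034004-121100642), led them with 97.4, 63.1 and 21.6 FPKM in WT AP, DLP and VP and 156, 20.9 and 9.47 FPKM in MYC. It made up between 41.0% and 68.8% of the summed FPKM of the group. It fell in DLP, by 3.02-fold (2.84 to 3.22), and in VP, by 2.28-fold (2.09 to 2.5), and was 1.60-fold higher in MYC AP (1.55 to 1.66). The ratio of AP to VP was 4.50 in WT (4.26 to 4.76) and 16.5 in MYC (15.2 to 17.8).

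The SFRP proteins resemble the ligand-binding part of a Frizzled. Sfrp2 (chr3:83765750-83774314) had 16.0, 7.25 and 7.31 FPKM in WT and 34.5, 4.02 and 3.17 FPKM in MYC. It rose 2.15-fold in AP (1.9 to 2.44), and WT was 2.30-fold above MYC in VP (1.83 to 2.90), just short of the threshold with a log2 ratio of -0.99. Sfrp1 (chr8:23411383-23449632) had 9.81, 8.78 and 4.60 FPKM in WT and 15.8, 10.9 and 1.42 FPKM in MYC, and fell in VP by 3.23-fold (2.81 to 3.74) while MYC AP and DLP lay above WT. Sfrp4 (chr13:19623175-19632825) had 2.87, 7.83 and 1.61 FPKM in WT and 2.74, 2.56 and 0.0784 FPKM in MYC. It fell in DLP by 3.06-fold (2.66 to 3.54) and in VP by 20.5-fold (10.3 to 44.1), so that its WT maximum in DLP, 2.73-fold above AP (2.34 to 3.19), was not seen in the MYC mouse.

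Of the DKK genes, Dkk3, a divergent member whose action on WNT signalling is debated, had 12.7, 10.9 and 2.26 FPKM in WT and 13.0, 6.48 and 0.962 FPKM in MYC. WT was 2.35-fold above MYC in VP (1.91 to 2.91), with a log2 ratio of -0.73. Dkk2, which binds LRP5 and LRP6, had 2.38, 5.49 and 0.661 FPKM in WT and 5.71, 5.09 and 0.966 FPKM in MYC. MYC AP was 2.4-fold above WT AP (2.06 to 2.79), a log2 ratio of 0.99, and Dkk2 was the one inhibitor with a log2 ratio above 0 in VP (0.24). Summed over the 9 inhibitors, WT had 142, 104 and 38.5 FPKM in AP, DLP and VP and MYC had 228, 50.9 and 16.3 FPKM, so that MYC lay above WT in AP and below it in DLP and VP.

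Axin2, a direct target of β-catenin that also restrains it, is the usual readout of the canonical branch (chr11:108917828-108950783). The WT levels were 15.9 FPKM (AP), 15.8 (DLP) and 5.65 (VP), against 14.9, 6.52 and 0.930 FPKM in MYC. As deposited, the AP levels of the 2 mice did not differ beyond counting error (1.07-fold, 0.969 to 1.18), and neither did AP and DLP within WT (1.01-fold, 0.912 to 1.11). With scaling by medians of ratios the AP log2 ratio of Axin2 went from -0.09 to -0.24. Axin2 fell in DLP by 2.42-fold (2.14 to 2.74) and in VP by 6.08-fold (4.63 to 8.22). The ratio of AP to VP was 2.81 in WT (2.48 to 3.19) and 16.0 in MYC (12.3 to 21.4). Lef1, a transcription factor of the pathway and itself a target (chr3:131110297-131224357), had 4.74, 2.64 and 0.657 FPKM in WT and 3.89, 1.46 and 0.472 FPKM in MYC. It kept the order AP, DLP, VP in both mice, with AP 7.21-fold above VP in WT (5.70 to 9.14) and 8.23-fold in MYC (6.26 to 11.1). Its MYC levels were below WT in every lobe without passing 2-fold, and in VP the ratio of 1.39 (0.993 to 1.99) was within counting error.

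AP lay above VP for most of the genes in each mouse by itself. The log2 difference of FPKM + 1 between AP and VP was above 0 for 22 of the 29 genes in WT (75.9%, against 50.8% of all genes) and for 26 in MYC (89.7%, against 51.1%), with the same sign in both for 25 (86.2%, against 73.6%). Its median was 0.75 in WT and 1.5 in MYC, against 0.01 and 0.02 over all genes. Across genes, which are not independent replicates, Pearson's r between the mice was 0.83 for the 29 genes and 0.60 for all 12361, where the 3 lobes of a mouse share its handling and the 2 axes share no library. Besides Wnt2, Wif1, Fzd1 and Axin2, the genes with a wider gap in MYC included Dkk3 (AP 5.61-fold above VP in WT and 13.5-fold in MYC), Sfrp2 (2.2-fold and 10.9-fold) and Rspo3 (1.87-fold and 9.79-fold). On the log2 scale the gap in MYC less that in WT equals the AP log2 ratio less the VP log2 ratio. A wider gap therefore restates the ratios given above and is not a further result.

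**Figure D4:**
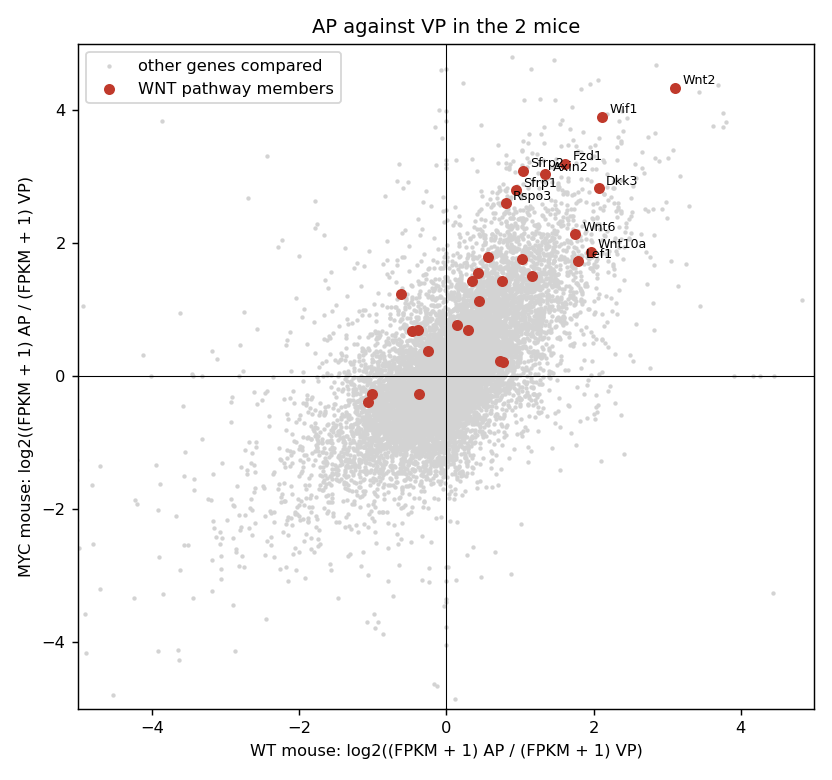
Log2 difference of FPKM + 1 between AP and VP in the WT mouse (x axis) and in the MYC mouse (y axis), with the 29 genes in red and all other genes compared in grey (69 genes lie outside the axes). Most red points lie in the upper right part, where AP is above VP in both mice, with Wnt2 and Wif1 farthest out.

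DNA around annotated transcript starts was searched for motifs, and the stretch before a start is printed for 4 of the genes that fell in MYC. Promoter windows from RefSeq (GRCm38.p6, 250 bases before to 50 after a transcript start) were at hand for 31 of the 48 genes, as 37 windows. CACGTG, the E-box that MYC with MAX binds and that reads the same on both strands, was in 5 of them (13.5%) against 7.15% of all 32851 windows, in Wif1, Lef1, Wnt9a, Fzd9 and Rspo4. CTTTGA on either strand, a core of TCF and LEF sites, was also in 5 (13.5%) against 16.0% of all windows, in Fzd1, Wnt5b, Lef1, Wnt11 and Dkk1. The 250 bases before the start had a median GC content of 66.8% in these windows and of 52.4% in all. Axin2 and Fzd1 are shown because they fell in VP with AP levels that, as deposited, did not differ beyond counting error. Wif1 is shown because it is the most abundant of the genes, and Wnt5b because it is the ligand that fell. Capitals mark CACGTG in Wif1 and CTTTGA or its reverse complement in Fzd1 and Wnt5b, and each is given 5′ to 3′ on the strand of the gene, at chr11:108920099-108920348 (plus strand), chr5:4758217-4758466 (minus strand), chr10:121033754-121034003 (plus strand) and chr6:119449387-119449636 (minus strand). The Wif1 and Fzd1 windows end where the gene begins, whereas those of Axin2 and Wnt5b lie inside the gene, before an internal transcript start. For Wnt5b the window shown is the one of 3 that holds a match, and the other 2, near the 5′ end of the gene and farther within it, had neither motif.
Axin2: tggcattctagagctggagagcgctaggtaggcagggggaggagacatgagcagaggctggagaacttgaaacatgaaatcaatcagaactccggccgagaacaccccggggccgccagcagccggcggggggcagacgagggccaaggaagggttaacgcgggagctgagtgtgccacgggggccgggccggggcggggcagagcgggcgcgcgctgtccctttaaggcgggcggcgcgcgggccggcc
Fzd1: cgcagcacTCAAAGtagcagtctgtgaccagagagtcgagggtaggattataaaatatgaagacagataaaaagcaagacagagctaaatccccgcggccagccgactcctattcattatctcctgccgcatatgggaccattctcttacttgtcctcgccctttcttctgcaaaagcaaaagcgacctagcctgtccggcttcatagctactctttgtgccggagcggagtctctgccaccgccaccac
Wif1: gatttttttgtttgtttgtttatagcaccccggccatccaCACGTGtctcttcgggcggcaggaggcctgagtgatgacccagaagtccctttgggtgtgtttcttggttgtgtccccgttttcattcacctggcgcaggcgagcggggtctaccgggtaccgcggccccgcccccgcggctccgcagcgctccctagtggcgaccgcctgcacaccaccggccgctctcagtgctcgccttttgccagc
Wnt5b: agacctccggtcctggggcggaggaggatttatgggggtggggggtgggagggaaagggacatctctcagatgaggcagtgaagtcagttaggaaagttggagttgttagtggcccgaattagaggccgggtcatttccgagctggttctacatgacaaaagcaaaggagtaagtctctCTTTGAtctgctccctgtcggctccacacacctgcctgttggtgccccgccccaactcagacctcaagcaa
The Axin2 window had neither motif. The E-box of Wif1 lies 210 bases before the start, and the TCF/LEF core lies 242 bases before it in Fzd1 and 71 bases before it in Wnt5b. A match of letters is a description and not a site of binding.

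The other genes of the pathway, from ligand secretion to the nucleus, are given from a list of their own. Of 70 listed, 68 were in the table and 56 were compared. None of the 56 rose in AP, DLP or VP, beside 2.05%, 6.46% and 6.88% of all genes, and none fell in AP, beside 0.599%, while 3 fell in DLP (Sp5, Gpc3 and Nkd1), beside 3.39% of all genes, and 4 fell in VP (Sp5, Tle2, Prickle1 and Nkd1), beside 5.95%. Their median log2 ratios were 0.08, -0.10 and -0.31 in AP, DLP and VP, against 0.13, 0.03 and 0.04 over all genes. Of the 56, 2 (Sp5 and Nkd1) fell in both DLP and VP, beside 1.88% of all genes. Sp5, a transcription factor, had 1.57, 17.3 and 4.69 FPKM in WT and 1.33, 1.61 and 0.232 FPKM in MYC, a fall of 10.7-fold in DLP (8.83 to 13.2) and 20.2-fold in VP (12.7 to 34.6). Nkd1, which inhibits the pathway inside the cell, had 18.4, 6.07 and 2.94 FPKM in WT and 13.0, 2.14 and 0.799 FPKM in MYC, and so shared the order AP, DLP, VP with Lef1. Tle2, a co-repressor of TCF and LEF factors, had VP levels of 7.48 FPKM (WT) and 1.78 FPKM (MYC). Prickle1, of the planar polarity branch, had 5.58 and 1.89 FPKM in the same libraries, and Gpc3, a glypican that binds WNTs, had DLP levels of 13.6 FPKM (WT) and 5.43 FPKM (MYC). Ctnnb1, which encodes β-catenin, had the highest level of the list and ranged from 124 to 151 FPKM over the 6 libraries, followed by the kinase genes Csnk1a1 (52.9 to 74.3 FPKM) and Csnk1d (33.9 to 48.5 FPKM).

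Of the marker lists of other cell types, those of fibroblasts and smooth muscle had lower sums in MYC DLP and VP and higher ones in MYC AP, the Schwann list was lower in MYC in all 3 lobes (4.83, 6.13 and 2.59 FPKM in WT, 2.37, 3.91 and 1.40 FPKM in MYC), and those of endothelial and hematopoietic cells were lower in none. The summed FPKM of 12 fibroblast and matrix markers was 2269, 2486 and 1238 in WT AP, DLP and VP and 2714, 1298 and 352 in MYC, so that WT was 1.91-fold above MYC in DLP and 3.52-fold in VP, with 3 of the 12 fallen in DLP and 8 in VP. None of the 12 fell in AP, where 3 rose, and 2 rose in DLP. Most of the sum came from Dcn and Gsn. Without them the other 10 markers had DLP sums of 305 FPKM (WT) and 370 FPKM (MYC), higher in MYC, and were 1.99-fold lower in MYC VP. In DLP Col1a1 (10.6 FPKM in WT, 44.8 in MYC), Col3a1 (22.3 and 94.0) and Col1a2 (40.6 and 70.5) were all higher in MYC. None of these 12 markers was at 0 in any library. From AP to VP the same sum was 1.83-fold lower in WT and 7.72-fold lower in MYC. The sum of 9 smooth muscle markers was 1.69-fold lower in MYC DLP and 1.64-fold lower in MYC VP, and hematopoietic markers were 4.55-fold higher in MYC DLP and 6.55-fold higher in MYC VP. Endothelial markers summed to 198, 141 and 29.8 FPKM in WT and 216, 167 and 35.4 FPKM in MYC, 6.64-fold (WT) and 6.11-fold (MYC) higher in AP than in VP but 1.19-fold higher in MYC than in WT in both DLP and VP. Pdgfra, which marks fibroblasts, had 23.5, 26.6 and 14.8 FPKM in WT and 28.1, 7.76 and 3.79 FPKM in MYC. In MYC it thus had the order AP, DLP, VP. Most of the WNT genes compared, and the fibroblast, smooth muscle and endothelial sums, also had that order there. Basal markers summed to 1501, 1054 and 466 FPKM in WT and 961, 1418 and 319 FPKM in MYC. The part of cell make-up in the values of the WNT genes was not tested.

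**Figure D5:**
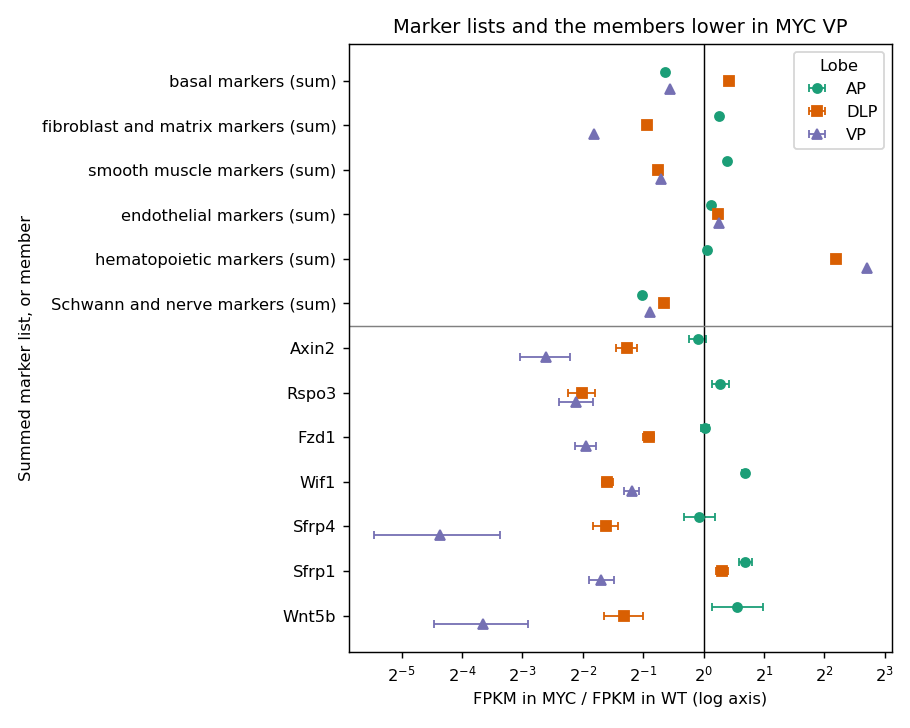
Ratio of FPKM in MYC over WT (log axis) in AP (circles), DLP (squares) and VP (triangles), for the summed marker lists above the grey line and, below it, for the 7 genes that fell in VP, with 95% counting intervals on the genes. The fibroblast and matrix sum and the smooth muscle sum lie left of 1 in DLP and VP and right of it in AP. So do Rspo3, Wif1, Wnt5b and, at 1.02 in AP, Fzd1. Axin2 and Sfrp4 lie left of 1 in AP too, and Sfrp1 lies right of it in DLP. Without Dcn and Gsn the fibroblast and matrix sum was higher in MYC DLP (370 FPKM) than in WT DLP (305 FPKM).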

How the data were processed

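Polyadenylated RNA of 6 lobes was sequenced as stranded libraries with single reads of 75 bases (bcl2fastq 2.18), aligned with STAR to mm10 and quantified with Cufflinks by the authors. The annotation is not given in the sources used here. The deposited values were FPKM, scaled to transcript length and library depth. The methods speak of counts and DESeq2, but the values are not whole and sum to 374085 to 483143 per library, so no count test was used. The human transgene was not separable in these values.

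In Python 3.11.15 (scipy 1.17.1, pandas 2.3.3, numpy 2.4.6; figures with matplotlib 3.10.9), genes that averaged 1 FPKM or more were compared by log2 ratios with a pseudocount of 1 FPKM, which understates the change of low genes, and called at 2-fold. With 1 library per group there is no replicate check and no p-value. Depth was estimated from the steps of FPKM below 0.3 and transcript lengths less 200 bases. Only 34.4% to 48.3% of low values were within 0.03 reads of whole at that depth (3% of a read on either side), so read counts, and the intervals made from them, are approximate. The script was tested on simulated data. Gene positions came from RefSeq.

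Every gene of the list that averaged 1 FPKM or more was named with values, and the others with their highest. Of the other pathway genes, those past 2-fold or among the 3 highest means were named. The genes, lists and thresholds were chosen with earlier results of these data known. The pseudocount, the minimum, the fold threshold and 3 scalings were varied.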

Additional observations from a re-analysis of the deposited data

Results flagged for a closer look

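As deposited, the MYC and WT libraries differed in opposite directions in a pair of lobes for 5 genes. The difference passed 2-fold in at least 1 lobe of the pair and lay beyond counting error in both. With 1 library per lobe and genotype, these differences were not tested. The log2 ratio of Wif1 was 2.23 higher in AP than in DLP and 1.79 higher than in VP. That of Rspo3, the R-spondin with the highest level, was 1.93 higher in AP than in DLP and 1.80 higher than in VP. Sfrp2 had a log2 ratio 1.78 higher in AP than in DLP and 2.05 higher than in VP. With medians of ratios or a trimmed mean as the scaling, its AP ratio was 0.91 or 0.92 and neither AP nor DLP passed 2-fold. The log2 ratio of Sfrp1 was 1.85 higher in AP than in VP and 1.49 higher in DLP than in VP. For Wnt5b, a ligand of the branch without β-catenin, it was 1.85 higher in AP than in VP. With medians of ratios the AP log2 ratio of Rspo3 went from 0.26 to 0.12 and that of Wnt5b from 0.33 to 0.24. Counting intervals were not made for scaled values. The AP libraries also differed in seminal vesicle transcripts, at 522 FPKM in MYC and 0.112 FPKM in WT over 7 markers, whose part in these values was not tested.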

How the results depend on the processing

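The medians of the WNT genes kept their sign under every setting tried, while those of all genes, which were near 0, did not, and several counts moved. Signs of single ratios turned under a scaling for Dkk3, Fzd1, Fzd6 and Wnt9a in AP, Fzd6 in DLP and Wnt7b and Lrp5 in VP, whose deposited log2 ratios were at most 0.09. With a pseudocount of 0.1 FPKM, 3 genes had risen in AP (Wnt5a, Sfrp2 and Dkk2) against 1, 7 had fallen in DLP against 4, 11 had fallen in VP against 7, 1 had risen in VP against 0, and 2 were highest in WT DLP against 1. Scaling by medians of ratios or by a trimmed mean left 0 risen in AP and took Sfrp2 from those highest in WT AP, and equal sums left 0 highest in WT VP (Lgr5). All 3 scalings kept the 4 genes that fell in DLP and the rise of Wnt10a there, and added Sfrp2 to those that fell in VP, making 8. Equal sums moved the VP median over all genes by log2 from 0.04 to -0.15 and that of the WNT genes from -0.58 to -0.70, and medians of ratios moved the WNT genes in AP from 0.20 to 0.08. With a minimum mean of 10 FPKM 4 WNT genes were left, of which 0 rose and 1 fell in DLP, 2 fell in VP, 1 was highest in WT AP, and 0 were highest in WT DLP or VP. At a threshold of 4-fold on the ratio of FPKM + 1, 0 rose in AP, 0 fell in DLP or VP, and 0 were highest in any WT lobe. The pseudocount lowers this ratio. As plain FPKM, Sfrp4 (20.5-fold), Wnt5b (12.6-fold), Axin2 (6.08-fold) and Rspo3 (4.31-fold) were past 4-fold lower in MYC VP, and Rspo3 in MYC DLP (4.05-fold). Without a minimum, 45 WNT genes were compared and the counts were the same. Genes under about 1 FPKM are limited by depth. No paired analysis was possible because, for MYC against WT, each genotype is 1 mouse, and no library could be left out. A model of lobe with the mouse as a block, over mice of different genotype, was not run.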
